A study of Mus musculus with 4 samples.

Results

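Cholesterol synthesis genes were examined in the prelimbic cortex of male mice on postnatal day 90 with prenatal exposure to fluoxetine or none; fluoxetine is an antidepressant that blocks serotonin reuptake. The set held 7 genes: Hmgcs1, Idi1, Fdft1, Sqle, Lss and Dhcr7, which encode enzymes, and Insig1, which encodes a regulator. It was chosen by name, as all probe sets annotated to 1 symbol only with that symbol being 1 of the 7. This gave 17 of the 45101 probe sets in the table, a probe set being a group of short probes that together read 1 transcript. None of the 7 encodes an uptake protein, so that the set covers synthesis and its control.

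RNA came from tissue punches, and each group held 2 Affymetrix arrays, which the design text calls biological duplicates. The strain and the dose and timing of fluoxetine were not given in the sources used here, nor were the number of mice behind each array and their litters. The p-values therefore measure the spread between these arrays. Values were log2 intensities, and each difference is the fluoxetine mean less the untreated mean on that scale.

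The brain makes nearly all of its own cholesterol, because lipoproteins do not cross the blood-brain barrier. Acetyl-CoA is built into mevalonate, then into isoprenoid units, squalene and lanosterol, and lanosterol is trimmed to cholesterol; oligodendrocytes need much of it for myelin, and astrocytes supply neurons. When sterols in the endoplasmic reticulum are scarce, the escort protein SCAP carries the transcription factor SREBP2 to the Golgi for cleavage, and the released fragment switches on the genes of the pathway. INSIG proteins hold SCAP back when sterols are plentiful, and Insig1 is itself an SREBP target.

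The deposited values of the arrays were alike in median and correlation. Array medians over the table lay between 6.44 and 6.50, and arrays correlated at 0.996 to 0.997 within and between groups. The authors named RMA, a method that normalizes across arrays, so the medians do not show how alike the arrays were before it. Poly-A control transcripts, added to the RNA before labelling, had a median difference of 0.24, and 24 of their 24 probe sets read higher with fluoxetine. These probe sets read only the dap, lys, phe and thr transcripts, so they are not 24 independent controls. Of the projection neuron markers, 7 of 7 measured genes had a probe set above the median of all tested probe sets. So did 10 of 10 astrocyte markers and 5 of 6 striatal markers. This rule therefore cannot tell the prelimbic cortex from other brain tissue. Striatal markers summed to 12623 linear intensity units in untreated replicate 2, while the other arrays had sums of 5698 to 7131. Myelin markers summed to 135290 there and to 120460 to 125890 elsewhere, so that this array carried more striatal and myelin marker signal. The source of that signal was not tested.

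RefSeq promoter sequence, of build GRCm38.p6, was held for 5 of the 7 genes, and the 250 bases before the transcript start were searched on both strands for the sterol regulatory element, the site that SREBP proteins bind, spelled TCACNCCAC, and for its shorter core CACNCCA, which every match of the longer spelling also holds. The sequences of Hmgcs1 and Insig1 are shown because they are the 2 that held a match, in capitals. Both windows are on the plus strand, at chr13:119690101-119690350 for Hmgcs1 and chr5:28071162-28071411 for Insig1, and the last base shown is the one before the start.

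Hmgcs1: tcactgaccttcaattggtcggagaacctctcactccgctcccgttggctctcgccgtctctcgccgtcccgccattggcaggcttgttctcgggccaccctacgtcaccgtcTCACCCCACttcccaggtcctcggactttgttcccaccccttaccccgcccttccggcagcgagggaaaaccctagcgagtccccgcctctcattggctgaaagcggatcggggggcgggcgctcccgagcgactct

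Insig1: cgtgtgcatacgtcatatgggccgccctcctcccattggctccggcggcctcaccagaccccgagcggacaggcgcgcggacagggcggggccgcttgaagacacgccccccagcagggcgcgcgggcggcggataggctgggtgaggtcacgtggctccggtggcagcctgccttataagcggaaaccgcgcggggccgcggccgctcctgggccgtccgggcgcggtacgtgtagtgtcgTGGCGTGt

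The Hmgcs1 window held 1 match to the longer spelling, which 1.05% of the 32851 promoters of the table hold in the same 250 bases. It lay from 137 to 129 bases before the start. Insig1 held the core alone, on the other strand, from 8 to 2 bases before the start, and 15.6% of promoters hold the core. Idi1, Lss and the 3 annotated starts of Dhcr7 held neither spelling. CCAAT boxes, spelled CCAAT, the site of the factor NF-Y that often acts beside SREBP, numbered 3 in the Hmgcs1 window, 2 in that of Idi1, 2 at 1 of the starts of Dhcr7, and 1 each in those of Lss and Insig1, against 33.8% of promoters with at least 1. GC boxes, spelled GGGCGG, were present in the windows of all 5 genes, but in only 2 of the 3 windows of Dhcr7, against 32.7% of promoters. These matches describe letters and not bound sites.

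Over the whole set, the differences were small. The median of the 17 probe sets was 0.06, against −0.01 over all 34945 tested probe sets, and 11 of the 17 were above 0 (47.6% of all tested). At an adjusted p below 0.05 in the limma fit, 0 of the 17 passed, against 0.00286% of all tested, which is a single probe set of Homer1. At an unadjusted p below 0.05, 1 probe set was higher with fluoxetine, or 5.88% against 6.40% of all tested, and 0 were lower, against 3.04%. The members' share thus lay near the background. Both fluoxetine arrays stood above both untreated arrays in 7 of the 17 (19.9% of all tested) and below both in 2 (20.0%). Among the 13 members above the median of all tested probe sets, these counts were 7 and 1. Of all 17472 tested probe sets above that median, 4810 (27.5%) stood above and 2615 below, so the background itself leaned upward there. Only 4 of the 17 differed between groups by more than the gap between the arrays of either group (27.4% of all tested): Hmgcs1 1433446_at, Sqle 1415993_at, Lss 1426913_at and Insig1 1454671_at. Leaving out fluoxetine replicate 1 brought the median to 0.03.

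**Figure D1:**
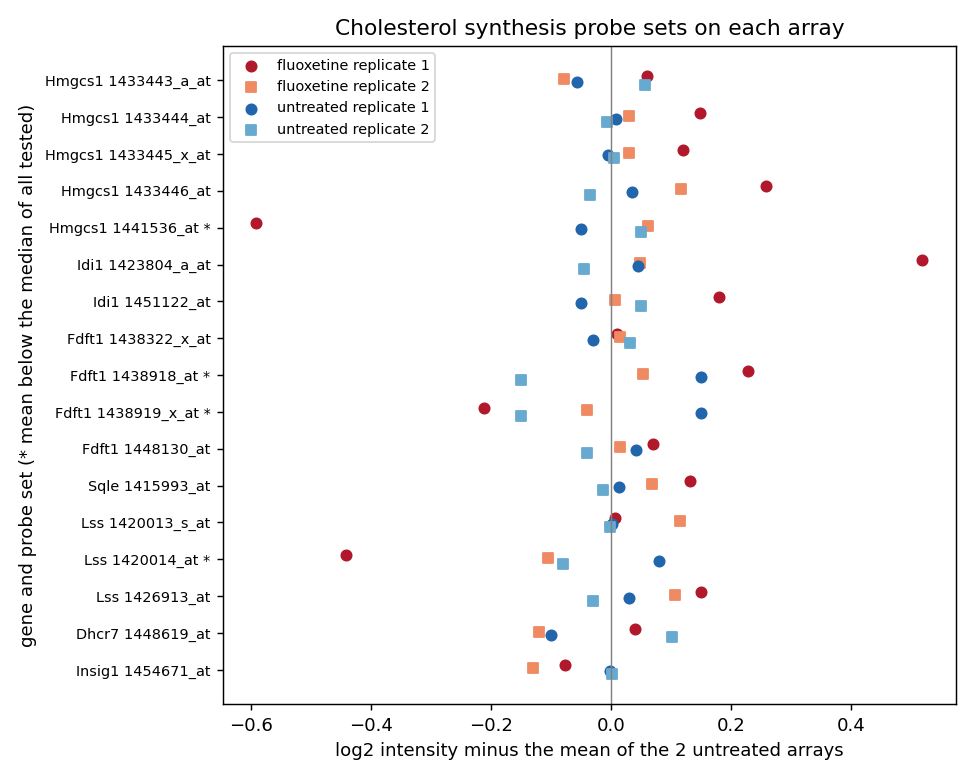
Log2 intensity of each of the 17 probe sets on each array, less the mean of the 2 untreated arrays; points are arrays, and a star marks probe sets whose mean lay below the median of all tested probe sets. Fluoxetine replicate 1 lies far to the right for Idi1 1423804_a_at (9.37 against 8.81 to 8.90) and both fluoxetine arrays lie to the left for Insig1.

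Hmgcs1 encodes the cytosolic HMG-CoA synthase, an early enzyme on the way to mevalonate. Its probe set 1433446_at read 11.66 and 11.52 on the fluoxetine arrays and 11.43 and 11.36 on the untreated arrays. The groups did not overlap. The difference was 0.19 (SE 0.06, n = 2 and 2), or 1.14-fold, with an unadjusted p of 0.0178 and an adjusted p of 0.430 in limma. It was the only member probe set past an unadjusted p of 0.05, and the p was 0.142 without fluoxetine replicate 1 (difference 0.12), 0.0995 without untreated replicate 2 (0.15) and 0.0952 without the intensity trend.

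The other probe sets of Hmgcs1 gave a narrower or opposite picture. Probe set 1433444_at read 12.87 and 12.76 with fluoxetine against 12.73 and 12.72 without, a difference of 0.09 (SE 0.05). Probe set 1433445_x_at, whose suffix marks probes that may bind other transcripts, read 12.99 and 12.90 against 12.86 and 12.87, a difference of 0.07 (SE 0.04). In both, the groups were apart but fluoxetine replicate 1 alone made most of the gap. Probe set 1433443_a_at read 13.10 and 12.96 with fluoxetine and 12.99 and 13.10 without, and the difference was −0.01 (SE 0.06) with 1 array of each group at the top. The dim probe set 1441536_at read 2.36 and 3.01 against 2.90 and 3.004, a difference of −0.26 (SE 0.24) that came from fluoxetine replicate 1 alone. The mean of all 5 probe sets gave 0.02 (SE 0.05).

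Idi1 encodes isopentenyl diphosphate isomerase, which turns one isoprenoid unit into its reactive isomer. Its probe set 1423804_a_at read 9.37 and 8.90 with fluoxetine and 8.90 and 8.81 without. Fluoxetine replicate 2 stood level with untreated replicate 1, and replicate 1 stood far above the rest. The difference of 0.28 (SE 0.14) was the largest above 0 among the 17, with an unadjusted p of 0.0872 and an adjusted p of 0.590 in limma. It was 0.05 without fluoxetine replicate 1 and 0.52 without fluoxetine replicate 2, where its unadjusted p was 0.00226. The second probe set, 1451122_at, read 11.01 and 10.84 against 10.78 and 10.88. Here too replicate 1 of the fluoxetine group was highest, the groups overlapped, and the difference was 0.09 (SE 0.07).

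Fdft1 encodes squalene synthase, the first enzyme committed to sterols. Probe set 1448130_at read 11.19 and 11.14 with fluoxetine and 11.16 and 11.08 without, a difference of 0.04 (SE 0.05). Probe set 1438322_x_at read 11.66 and 11.66 against 11.62 and 11.68, a difference of 0.01 (SE 0.05), which was −0.02 after another quantile normalization. The groups overlapped in both, and their 95% intervals reached 1.12-fold and 1.09-fold at the upper end. The dim probe sets 1438918_at and 1438919_x_at differed by 0.14 (SE 0.14) and −0.13 (SE 0.15), also with overlap; the first read 6.55 and 6.38 against 6.48 and 6.18, and the second 6.11 and 6.28 against 6.47 and 6.17.

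Sqle encodes squalene epoxidase, a rate-limiting oxygen-dependent step. Its 1 probe set read 10.86 and 10.79 with fluoxetine and 10.74 and 10.71 without. Both fluoxetine arrays were above both untreated arrays. The difference was 0.10 (SE 0.05), or 1.07-fold with a 95% interval of 0.98 to 1.17-fold, and its adjusted p was 0.599 in limma. It kept its direction with each array left out, between 0.07 and 0.13.

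Lss encodes lanosterol synthase, which closes the sterol rings. Probe set 1426913_at read 8.83 and 8.79 with fluoxetine and 8.71 and 8.65 without, with the groups apart and a difference of 0.13 (SE 0.07; adjusted p = 0.619 in limma). Probe set 1420013_s_at read 7.90 and 8.01 against 7.90 and 7.90, and only fluoxetine replicate 2 stood clear of the rest (difference 0.06, SE 0.09). The dim probe set 1420014_at went the other way, at 5.28 and 5.61 against 5.80 and 5.64, a difference of −0.27 (SE 0.16) without overlap. The probe sets of this gene thus differed in sign, and their mean gave −0.03 (SE 0.08).

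Dhcr7 encodes the reductase of the last step, from 7-dehydrocholesterol to cholesterol. Its 1 probe set read 8.93 and 8.77 with fluoxetine and 8.79 and 8.99 without. The highest array was untreated replicate 2, the array with the most myelin and striatal marker signal, and the groups overlapped. The difference was −0.04 (SE 0.10), and it was 0.06 without that array and 0.04 without fluoxetine replicate 2. The part of the marker signal in this value was not tested. Untreated replicate 2 was the highest array in 3 of the 17 member probe sets and the lowest in 8.

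Insig1 read 10.60 and 10.55 with fluoxetine and 10.67 and 10.68 without. Both fluoxetine arrays lay below both untreated arrays, and the untreated arrays were 0.0028 apart. The difference was −0.10 (SE 0.05), or 0.93-fold with a 95% interval of 0.86 to 1.01-fold, with an unadjusted p of 0.0869 and an adjusted p of 0.590 in limma. After another quantile normalization it was −0.14 with an unadjusted p of 0.0191, and with each array left out it lay between −0.13 and −0.08. Insig1 was the only one of the 7 genes whose every probe set had both fluoxetine arrays below both untreated arrays, and it has 1 probe set.

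**Figure D2:**
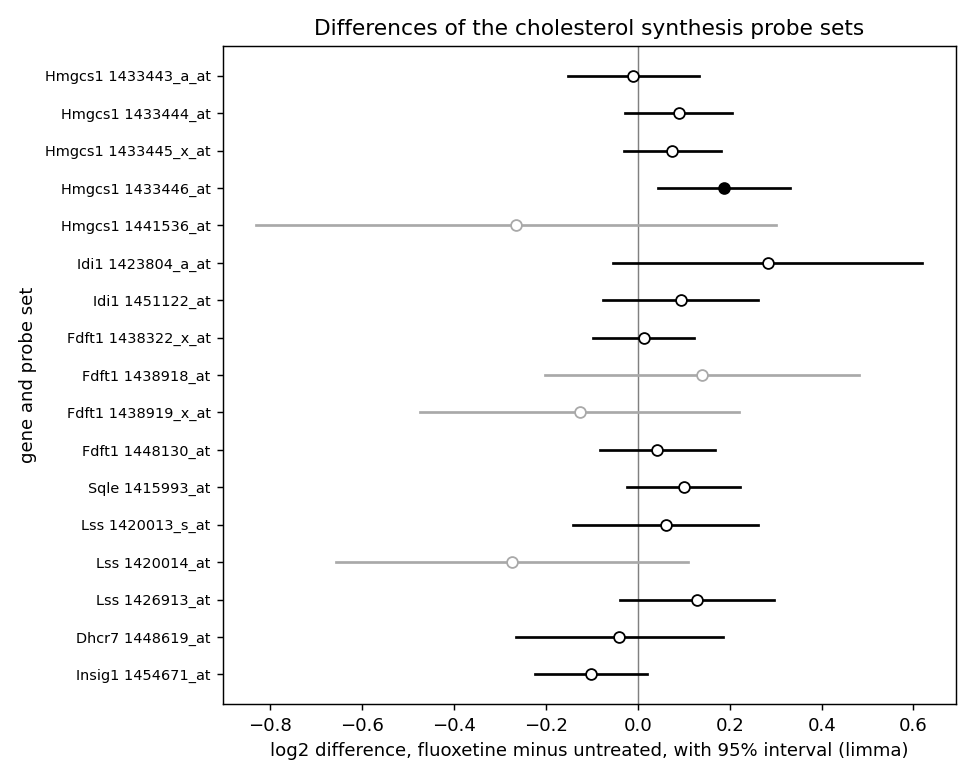
Log2 difference of each member probe set, fluoxetine minus untreated, with its 95% interval from limma; filled points have an unadjusted p below 0.05, and grey marks probe sets whose mean lay below the median of all tested probe sets. The only filled point is Hmgcs1 1433446_at, at 0.19, and the 4 grey intervals are the widest.

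The precision differed with signal. For 14 of the 17 probe sets the 95% interval lay within 1.5-fold in either direction. The 3 that reached past it were Idi1 1423804_a_at, with an upper end of 1.54-fold, and the dim probe sets Hmgcs1 1441536_at and Lss 1420014_at, with lower ends of 0.56-fold and 0.63-fold. Of the 17, 13 had a mean above 7.12, the median of all tested probe sets, where the median SE was 0.06, against 0.15 for the other 4. These 4 were the probe sets 1441536_at of Hmgcs1, 1438918_at and 1438919_x_at of Fdft1, and 1420014_at of Lss. An exact two-sided permutation test of 2 arrays against 2 cannot give a p below 0.333.

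The arrays did not contribute evenly. Fluoxetine replicate 1 was the highest array in 10 of the 17 probe sets (28.0% of all tested), untreated replicate 2 in 3 (30.8%), and fluoxetine replicate 2 and untreated replicate 1 in 2 each (16.4% and 24.8%). Untreated replicate 2 was the lowest array in 8 of the 17 (20.7% of all tested). Among all 17472 tested probe sets above the median level, 37.4% were highest on fluoxetine replicate 1 and 57.0% had a difference above 0. In the 13 members above that level these counts were 9 and 10, given as a description. The untreated arrays gave a different picture. Of all tested probe sets above that level, 36.7% were highest on untreated replicate 2 and 17.0% were lowest on it. Another 45.3% were lowest on untreated replicate 1. In the 13 members these counts were 3, 7 and 3.

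**Figure D3:**
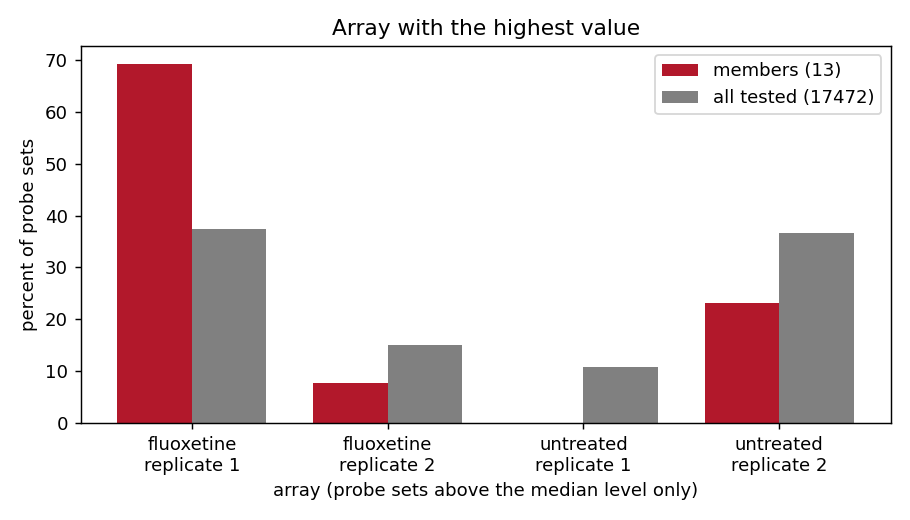
Percent of probe sets whose highest value fell on each array, for the 13 member probe sets above the median level and for all 17472 tested probe sets above it. Fluoxetine replicate 1 was highest for 69.2% of these members and for 37.4% of all tested.

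The other enzymes of the pathway were read from a list of the remaining synthesis steps. Of 23 probe sets of 12 further cholesterol synthesis genes, 4 were higher with fluoxetine past an unadjusted p of 0.05 and 0 were lower. The other 19 did not pass. Of all tested probe sets, 6.40% were higher and 3.04% lower. Above the median level, where 18 of the 23 lay, the shares were 10.0% and 1.68%. These shares are also the background for the lists below. After adjustment over all tested probe sets, 0 of the 23 passed. A difference above 0 was seen in 18 (47.6% of all tested), and the median was 0.07, against −0.01 over all tested. Of the 18 probe sets above the median level, 14 had a difference above 0, against 57.0% of all tested there. The medians at that level were 0.055 for these 18 and 0.016 for all tested. The difference between these 23 probe sets and the members was not tested. Probe sets of the early steps, from acetyl-CoA to farnesyl diphosphate, had 0 of 7 past the threshold. Fdps, the farnesyl diphosphate synthase gene, read 11.04 and 10.98 against 10.93 and 10.86 in its bright probe set (difference 0.11, SE 0.05), and its dim one differed by −0.27 (SE 0.17). Mvd, which encodes mevalonate diphosphate decarboxylase, differed by 0.04 (SE 0.08) and 0.03 (SE 0.08).

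The 4 higher probe sets were all in the squalene and sterol steps, as 4 of 16 there. Cyp51, which encodes the lanosterol demethylase, held 2 of them: 1422533_at read 8.36 and 8.13 against 7.97 and 7.95 (difference 0.28, SE 0.10), and 1450646_at read 9.97 and 9.94 against 9.80 and 9.84 (difference 0.14, SE 0.06). The third, dimmer probe set, 1422534_at, differed by 0.01 (SE 0.12). The others, named after their values were seen, were probe sets of Hsd17b7, a sterol ketoreductase gene, and Sc5d, the lathosterol desaturase gene. Hsd17b7 differed by 0.47 (SE 0.20) in 1417871_at but by 0.01 (SE 0.08), −0.0010 (SE 0.07) and 0.13 (SE 0.19) in its other 3 probe sets. Sc5d differed by 0.13 (SE 0.06) in 1451457_at and by 0.08 (SE 0.06) and 0.29 (SE 0.13) in the others. Msmo1, the sterol methyl oxidase gene, read 11.47 and 11.34 against 11.30 and 11.27 (difference 0.12, SE 0.06), and differed by 0.07 (SE 0.20) in its dim probe set.

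Among the genes that control SREBP, Insig2, the second INSIG gene, was higher in 1 of 3 probe sets at an unadjusted p below 0.05. That probe set, 1417982_at, read 9.71 and 9.57 against 9.40 and 9.49 (difference 0.19, SE 0.07), so that both fluoxetine arrays were above both untreated arrays, the reverse of Insig1; the other probe sets differed by 0.19 (SE 0.09) and 0.01 (SE 0.06). Srebf2, the SREBP2 gene, differed by 0.03 (SE 0.07) and −0.11 (SE 0.06) in its 2 probe sets and Srebf1 by −0.15 (SE 0.10). Scap differed by −0.04 (SE 0.06) in its bright probe set and by 0.39 (SE 0.14) in a dim one that read 5.39 and 5.32 against 5.02 and 4.91. Mbtps1, the site-1 protease gene, differed by −0.02 (SE 0.08) in its bright probe set and had dim probe sets of opposite sign, −0.36 (SE 0.11) and 0.41 (SE 0.15). Over this list without Insig1, 3 of 18 probe sets were higher, 1 was lower and the median was −0.02.

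Genes of uptake and lysosomal export had 3 of 27 probe sets higher and 1 lower past an unadjusted p of 0.05, with a median of −0.02. Vldlr, a lipoprotein and reelin receptor gene, held 2 of the 3: 1438258_at read 8.69 and 8.55 against 8.40 and 8.17 (difference 0.33, SE 0.10), and 1442169_at differed by 0.32 (SE 0.12). Its other 4 probe sets did not pass and differed in sign: 1434465_x_at by −0.05 (SE 0.08), 1435893_at by −0.07 (SE 0.07), 1417900_a_at by −0.03 (SE 0.08) and the dim 1451156_s_at by 0.41 (SE 0.19). Stard4, which encodes a sterol transfer protein, read 7.97 and 7.59 against 7.45 and 7.35 in 1429240_at (difference 0.38, SE 0.14), but differed by −0.06 (SE 0.08) and 0.12 (SE 0.10) in its other 2 probe sets. Lipa, the lysosomal acid lipase gene, held the lower one and was named after its values were seen (−0.30, SE 0.13, with 0.15, SE 0.15, and −0.12, SE 0.09, in its other 2 probe sets). Genes of efflux, storage and hydroxylation had 0 of 16 past the threshold in either direction and a median of −0.03. Apoe, the main brain apolipoprotein gene, differed by 0.01 (SE 0.05), Abca1, the cholesterol exporter gene, by 0.01 (SE 0.07) in its bright probe set and by −0.06 (SE 0.14) and −0.14 (SE 0.18) in its dim ones, and Cyp46a1, whose enzyme makes the form of cholesterol that leaves the brain, by −0.04 (SE 0.05).

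Fatty acid synthesis and desaturation genes had 5 of 31 probe sets higher and 1 lower past an unadjusted p of 0.05, with a median of 0.05. Elovl6, a fatty acid elongase gene, read 8.46 and 8.17 against 7.73 and 7.48 in 1417403_at (difference 0.71, SE 0.13; unadjusted p = 0.000893, adjusted p = 0.331 in limma). Its other 2 probe sets differed by only 0.14 (SE 0.08) in 1417404_at and by −0.20 (SE 0.17) in the dim 1442656_at. The desaturase gene Scd2 differed by 0.14 (SE 0.04) and 0.41 (SE 0.15) in the probe sets 1415823_at and 1415824_at and by 0.03 (SE 0.04) in 1415822_at. The desaturase gene Fads2 differed by 0.19 (SE 0.06) in 1449325_at and by 0.07 (SE 0.06) and −0.065 (SE 0.09) in the others. Isoprenoid branch genes had 3 of 24 higher and 1 lower, with a median of 0.05. Ggps1, the geranylgeranyl diphosphate synthase gene, held 2 of the 3, with 0.32 (SE 0.09) in 1419805_s_at and 0.26 (SE 0.10) in 1419505_a_at, and its other probe sets differed by 0.18 (SE 0.09) and 0.07 (SE 0.08). Pdss2, of ubiquinone synthesis, differed by −0.48 (SE 0.15) in a dim probe set, and by −0.10 (SE 0.07) and 0.08 (SE 0.18) in the others. The median changed sign with an array left out for the isoprenoid list, from −0.03 to 0.11, the uptake list, from −0.08 to 0.06, and the SREBP list, from −0.02 to 0.01.

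**Figure D4:**
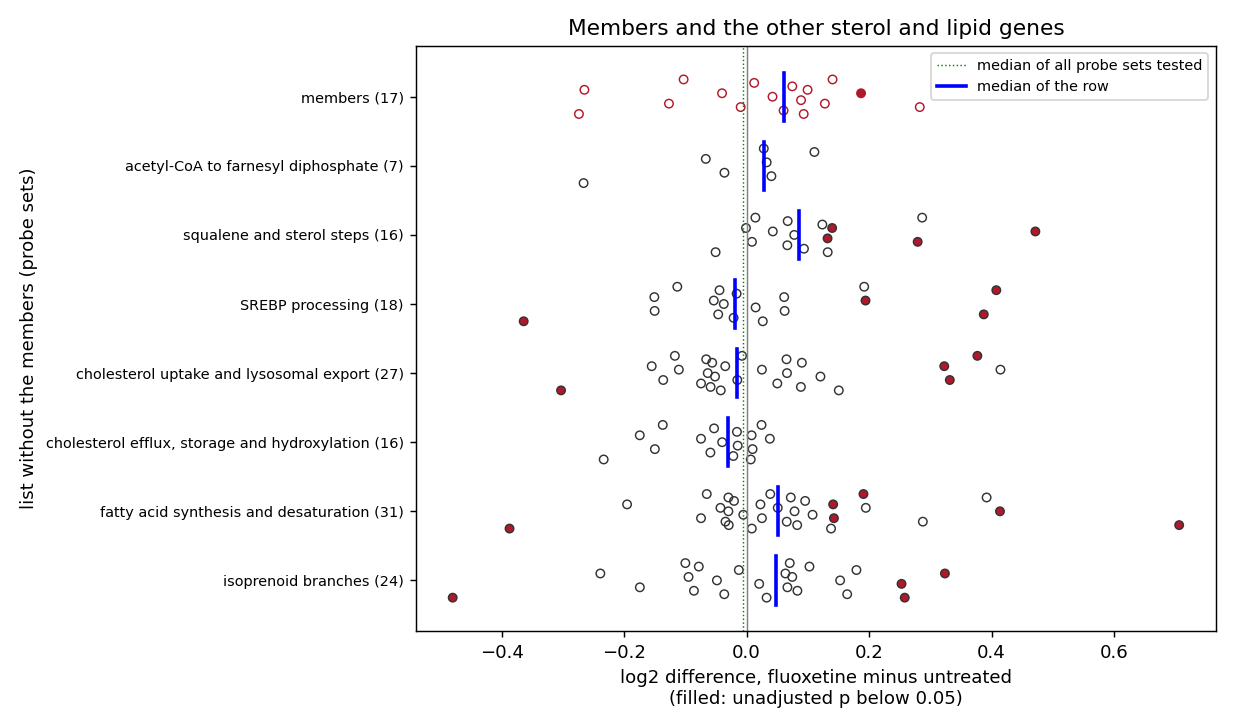
Log2 difference of each probe set, fluoxetine minus untreated, for the 17 member probe sets and for the other genes of 7 sterol and lipid lists without the members; each point is a probe set, filled where the unadjusted p was below 0.05, and the vertical bars are row medians. The members' median is 0.06, and the squalene and sterol row holds 4 filled points, all above 0.

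Markers of the cells in the tissue are given beside these values, and 0 of their probe sets passed in limma after adjustment over all tested probe sets. At an unadjusted p below 0.05, 6.40% of all tested probe sets were higher and 3.04% lower. The shares were 10.0% and 1.68% among those above the median level. Astrocyte markers had 11 of 33 probe sets higher and 0 lower past an unadjusted p of 0.05, and their summed linear intensity was 70766 to 71788 with fluoxetine and 66767 to 67055 without. Neuron markers had 7 of 23 higher and 1 lower, with sums of 118980 to 122660 and 114800 to 115680. Myelin markers had 2 of 29 higher and 4 lower, with sums of 125060 to 125890 and 120460 to 135290. Endothelial and mural markers had 4 of 17 higher and 1 lower, with sums of 10189 to 10267 and 8998 to 10122, and microglial markers 1 of 12 higher and 1 lower, with sums of 10815 to 11291 and 11065 to 11825. Projection neuron markers had 5 of 14 higher and 0 lower, with sums of 12974 to 13462 and 12027 to 13086, and striatal markers 0 of 10 either way. Over the astrocyte and neuron lists the sums of the groups did not overlap, nor did those of the endothelial list, while those of the myelin, microglial, projection neuron and striatal lists did. No marker gene was listed at 0. The part of these cells in the members' values was not tested, and in tissue RNA fewer cells of a type and less RNA per cell cannot be told apart.

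The mean profile of the 7 genes over the 4 arrays, each gene centred on its own mean, was 0.04 and −0.02 on the fluoxetine arrays and −0.01 and −0.01 on the untreated arrays. It stood above 0 on fluoxetine replicate 1 alone, and there Idi1 stood far above the other genes, at 0.25. On that array Sqle stood at 0.08, Dhcr7 at 0.06 and Fdft1 at 0.02. Hmgcs1 stood at −0.01, Insig1 at −0.02 and Lss at −0.08. A gene's value was the plain mean of its centred probe sets, dim ones included. Every bright Hmgcs1 probe set was highest on that array, while the dim 1441536_at was lowest there. For Lss, 1426913_at was highest on that array and the dim 1420014_at lowest, while 1420013_s_at was highest on fluoxetine replicate 2. The 3 bright probe sets of other genes nearest to the mean profile were those of Tut7 (0.0024), Homer1 (0.0028) and Fgd6 (0.0036). The measure was the root mean square difference over the 4 arrays. All 3 were nearly level between groups, with differences of 0.02, 0.02 and 0.02. The Homer1 probe set among them, 1437363_at, read 12.38 and 12.31 with fluoxetine and 12.32 and 12.32 without. Its adjusted p was 0.911 in limma, so it is not the Homer1 probe set that passed after adjustment.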

How the data were processed

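Gene expression was measured on Affymetrix 3' arrays in 4 samples, 2 per group, from total RNA with biotin labelling, per the labels' protocols. The deposited table holds log2 intensities; the authors named RMA, affy and limma, per the submitters' processing notes, with versions not given in the sources used here. That the log base is 2 was inferred from the range, −0.08 to 15.14. Of 45101 probe sets, 64 were array controls, 932 had several symbols and 9160 others had none; the 34945 with 1 symbol in the platform annotation were tested without a filter, and probe sets were kept separate. Of these, 34741 matched a RefSeq gene by Entrez number.

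The fit was limma 3.58.1 in R 4.3.3 (lmFit, eBayes with an intensity trend). Tests were two-sided and adjusted by Benjamini-Hochberg over all tested probe sets, on 2 residual and 5.11 prior degrees of freedom. Replicate numbers only name arrays. The code was tested on simulated data. Alternatives were 2 other scalings, no trend, a level filter, other sets of probe sets and each array left out. Named genes were every member probe set, the 12 pathway probe sets with the smallest p among those past an unadjusted 0.05, and a fixed set of sterol genes, some of which are not reported here, with other probe sets of these genes beside them; the few others named are marked in the text. The members and lists were chosen with earlier results of these data known. On this scale, background signal shrinks the differences of dim probe sets.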

Additional observations from a re-analysis of the deposited data

How the results depend on the processing

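The number of arrays, 2 a group, and dim signal limit the precision. No paired analysis was possible because the labels give no replicate numbers shared between groups. The count of 0 member probe sets at an adjusted p below 0.05 held under every alternative run. The median of the members, 0.06, was 0.012 with the highest-mean probe set of each gene and 0.015 with the mean of a gene's probe sets, over 7 genes each, and 0.029 to 0.070 with an array left out. The 1 member higher at an unadjusted p below 0.05 became 0 without the intensity trend and 0 with either choice of 1 value per gene, and 0 to 3 with an array left out: 0 without fluoxetine replicate 1, 3 without fluoxetine replicate 2 and 0 without untreated replicate 2. The 0 lower became 1 after another quantile normalization, which was Insig1, and 0 to 1 with an array left out. The efflux list's median, −0.031, was −0.042 after another quantile normalization, −0.015 above the median level and −0.053 with gene means, and −0.072 to −0.025 with an array left out; that of fatty acid genes, 0.051, was 0.027 to 0.086 with an array left out. Fdft1 1438322_x_at was −0.022 after another quantile normalization and −0.018 to 0.043 with an array left out. Signs also changed with an array left out for Hmgcs1 1433443_a_at (−0.079 to 0.060), Hmgcs1 1441536_at (−0.59 to 0.061), Fdft1 1438918_at (−0.0097 to 0.29), Fdft1 1438919_x_at (−0.28 to 0.023) and Dhcr7 1448619_at (−0.14 to 0.061). The causes were not tested. Of all tested probe sets past an unadjusted p of 0.05, 67.8% were higher, against 58.2% after another quantile normalization, 62.8% with array medians subtracted and 50.3% without the trend.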
